A study of Mus musculus with 10 samples.

Results

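Of the 10 libraries of the series, 7 had a raw Hba-a1 level under 200 CPM (counts scaled to the library total) and form the comparison described here. Hba-a1 encodes adult alpha-globin, a red blood cell transcript, so its level shows how much erythroid RNA came along with the sorted oocytes. These globin-low libraries were heterozygous 1, 2 and 3 and deficient 1, 2, 3 and 4. They were selected on this measured Hba-a1 level, which is given as a description only. It ran from 22.2 to 87.3 raw CPM in the heterozygous and from 36.0 to 89.2 in the deficient libraries, and was 303, 877 and 651 in the left-out heterozygous 4, heterozygous 5 and deficient 5. Cutoffs of 100 and 300 raw CPM select the same 7 libraries.

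The study sequenced RNA from mouse fetal oocytes at E16.5, a stage of meiotic prophase. Both genotypes came from matings of Taf4b-heterozygous parents that also carried the homozygous Oct4-EGFP reporter (B6;129S4-Pou5f1tm2Jae/J), a green fluorescent protein expressed from the Pou5f1 locus that marks germ cells, and the strain is given as C57BL/6. Ovary cells of each genotype were sorted for green fluorescence, with dead cells removed by propidium iodide staining. One group was Taf4b-heterozygous and the other Taf4b-deficient, with 3 litter dates in all, and no wild-type library enters the comparison. Whether different libraries come from different embryos is not in the labels, so the p-values below measure the spread between libraries, which may be partly technical.

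TAF4b is a variant subunit of TFIID, the complex that recognises core promoters and starts the assembly of RNA polymerase II. It is enriched in the gonads, where it can take the place of its relative TAF4. Female mice without TAF4b lose oocytes around birth and are infertile, which makes the fetal ovary a setting in which to ask which transcripts differ when the subunit is missing.

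Total counts ran from 21175400 to 26983600 in the globin-low heterozygous libraries and from 16707200 to 23680000 in the deficient ones. Pearson correlations of log2 CPM over genes ran from 0.962 to 0.979 between deficient libraries and from 0.944 to 0.962 between heterozygous ones. Heterozygous 3 stood apart: its correlations with the other 6 libraries ran from 0.935 to 0.953, against 0.960 to 0.979 for all other pairs. It also had the smallest share of counts on the mitochondrial genome, 0.853%, where the other 6 libraries ran from 1.52% to 2.56%. Germ cell markers (Ddx4, Dazl, Pou5f1, Dppa3, Mael, Sycp3, Tex14 and also Taf4b and Stra8 themselves) summed to 4910 to 6870 CPM in heterozygous and 4560 to 6220 CPM in deficient libraries. Erythroid markers summed to 67.7 to 223 and 110 to 227 CPM, with embryonic Hbb-bh1 at 0 in all 7. Endothelial markers reached 96.9 CPM in deficient 1 (20.5 to 39.3 in the other 6), and in deficient 3 pregranulosa markers reached 138 CPM (38.5 to 59.6) and ovarian stroma markers 108 CPM (21.5 to 44.5). Macrophage markers summed to 269 to 323 CPM in heterozygous and 188 to 306 CPM in deficient libraries, the largest sum outside germ cells in every globin-low library. Surface epithelium markers summed to 52 to 72.2 and 36.9 to 55 CPM. In bulk libraries fewer cells of a type and less RNA per cell cannot be told apart.

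Taf4b, the gene that defines the genotypes, was read first. Its level was 271, 290 and 142 CPM in heterozygous 1, 2 and 3, and 80.7, 81.7, 80.2 and 73.7 CPM in deficient 1 to 4. Every deficient library lay below every heterozygous one, with heterozygous 3 nearest to the deficient group. The means were 234 ± 80.5 CPM (SD, n = 3) and 79.1 ± 3.65 CPM (SD, n = 4). The log2 fold change was -1.56 ± 0.24 (SE, adjusted p = 0.285 by the quasi-likelihood test of edgeR). Taf4b had the smallest p of all genes tested, 2.02e-05 before adjustment. DESeq2 on the same counts gave Taf4b an adjusted p of 2.84e-05, and edgeR gave 0.0344 without heterozygous 1 and 0.0025 without heterozygous 3. In the left-out libraries Taf4b was 65.7 and 101 CPM in heterozygous 4 and 5 and 58.2 CPM in deficient 5, so heterozygous 4 lay below all 4 globin-low deficient libraries. The labels do not say which part of the gene the deficient allele lacks, and a count per gene includes reads from any part that is still transcribed.

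Stra8, which licenses entry into meiosis in response to retinoic acid, spread widely within the genotypes. It stood at 965, 221 and 237 CPM in the heterozygous libraries and at 630, 415, 447 and 882 CPM in the deficient ones, so the genotypes overlapped. The log2 fold change was 0.33 ± 0.46 (SE, adjusted p = 0.782 by edgeR). Heterozygous 1 alone was above all deficient libraries; without it the log2 fold change of Stra8 was 1.36 with an adjusted p of 0.0651 by edgeR, and without heterozygous 2 it was -0.01. In heterozygous 4, heterozygous 5 and deficient 5, Stra8 was 56.3, 10.3 and 156 CPM, lower than in any globin-low library. The 7 globin-low libraries thus share, besides low globin, a Stra8 level of at least 221 CPM.

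**Figure D1:**
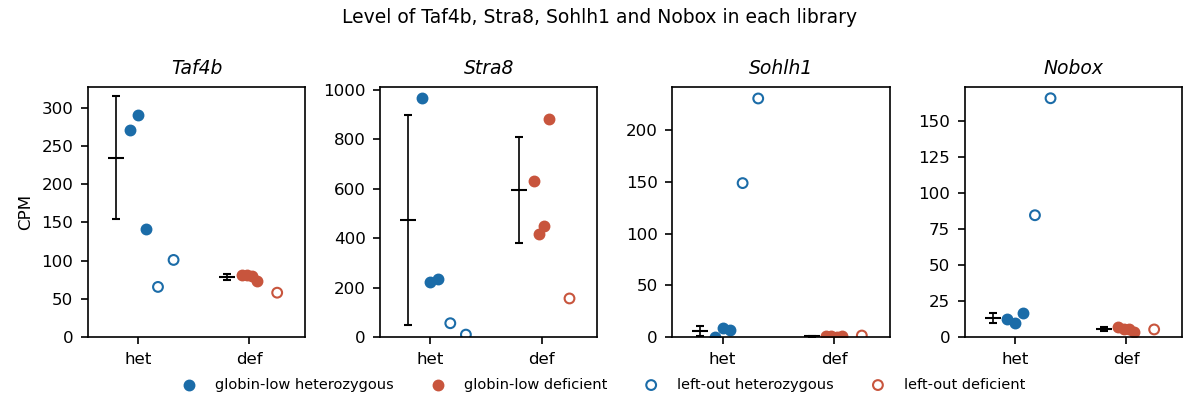
CPM of Taf4b, Stra8, Sohlh1 and Nobox in each library, by genotype; filled points are the 7 globin-low libraries, open points the 3 left-out libraries, and black bars the mean and SD of the globin-low libraries. Taf4b separates the globin-low genotypes (142 to 290 against 73.7 to 81.7 CPM), Stra8 does not, and Sohlh1 and Nobox reach 231 and 166 CPM only in the left-out heterozygous libraries.

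Across all genes, the genotype test called none of 19655 genes at an adjusted p under 0.05 (0%) by edgeR's quasi-likelihood test, and the smallest adjusted p was 0.285. At an unadjusted p under 0.05, 2497 genes (12.7%) passed: 1182 (6.01%) with higher and 1315 (6.69%) with lower levels in deficient oocytes. For 2232 genes (11.4%) the 4 deficient libraries did not overlap the 3 heterozygous ones, 1221 (6.21%) lying above and 1011 (5.14%) below. DESeq2 called 165 of 15052 genes (1.1%), 65 higher (0.432%) and 100 lower (0.664%), all with the same 7 libraries. The edgeR count rested on heterozygous 1: without it 151 of 20438 genes (0.739%) were called, 70 higher (0.342%) and 81 lower (0.396%), and without heterozygous 2 or heterozygous 3 only 1 was. A model of all 10 libraries with globin class as a term, which shares these 7 libraries, called 241 of 19244 genes (1.25%), 135 higher (0.702%) and 106 lower (0.551%). The genes below are those with the smallest p or largest difference at an unadjusted p under 0.05 and up to 3 members of each gene list, and they are described by their values with no claim that they changed. Their number was 108, of which 106 had such a p, 61 higher and 45 lower, and 32 were called by DESeq2. Counts of list members below are to be read beside the all-gene shares of 6.01% higher, 6.69% lower and 11.4% without overlap.

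Because TFIID acts at core promoters, the start regions of 5 of the genes with small p-values are shown, 2 with lower and 3 with higher levels in deficient oocytes. Each window is RefSeq sequence on GRCm38.p6, 5′ to 3′ on the gene's strand, from 250 bases before to 50 bases after the start. Capitals mark CCAAT (the box bound by NF-Y), GGGCGG (the GC box bound by SP factors) and TATAAA (the letters of the TATA box), each searched on both strands; none of these letters overlaps another motif.
Trim52, plus strand, chr14:106105948-106106247: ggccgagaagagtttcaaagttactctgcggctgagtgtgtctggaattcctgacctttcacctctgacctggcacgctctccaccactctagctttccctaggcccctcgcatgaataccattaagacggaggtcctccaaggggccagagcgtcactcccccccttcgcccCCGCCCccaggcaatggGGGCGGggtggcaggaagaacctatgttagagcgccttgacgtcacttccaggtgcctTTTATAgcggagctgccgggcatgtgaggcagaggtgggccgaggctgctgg
Plk1, plus strand, chr7:122159185-122159484: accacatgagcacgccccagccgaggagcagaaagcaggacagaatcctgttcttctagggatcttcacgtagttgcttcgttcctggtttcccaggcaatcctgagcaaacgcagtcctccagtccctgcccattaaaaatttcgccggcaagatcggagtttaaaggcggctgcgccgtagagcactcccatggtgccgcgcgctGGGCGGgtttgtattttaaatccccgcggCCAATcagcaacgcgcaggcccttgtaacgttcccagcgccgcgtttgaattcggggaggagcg
Ice1, minus strand, chr13:70637585-70637884: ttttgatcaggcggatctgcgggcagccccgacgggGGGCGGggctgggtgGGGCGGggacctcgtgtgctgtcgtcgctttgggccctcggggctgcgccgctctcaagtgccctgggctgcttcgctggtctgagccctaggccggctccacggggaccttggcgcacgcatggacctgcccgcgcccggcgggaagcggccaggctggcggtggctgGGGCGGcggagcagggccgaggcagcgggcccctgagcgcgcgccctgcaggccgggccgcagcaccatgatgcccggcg
Suz12, plus strand, chr11:79992856-79993155: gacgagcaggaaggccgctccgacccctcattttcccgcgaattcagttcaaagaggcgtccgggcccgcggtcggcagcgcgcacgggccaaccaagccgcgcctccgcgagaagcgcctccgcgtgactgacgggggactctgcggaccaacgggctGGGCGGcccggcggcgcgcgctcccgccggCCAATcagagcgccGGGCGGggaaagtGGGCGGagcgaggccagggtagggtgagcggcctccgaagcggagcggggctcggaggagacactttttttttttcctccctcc
Dot1l, plus strand, chr10:80754953-80755252: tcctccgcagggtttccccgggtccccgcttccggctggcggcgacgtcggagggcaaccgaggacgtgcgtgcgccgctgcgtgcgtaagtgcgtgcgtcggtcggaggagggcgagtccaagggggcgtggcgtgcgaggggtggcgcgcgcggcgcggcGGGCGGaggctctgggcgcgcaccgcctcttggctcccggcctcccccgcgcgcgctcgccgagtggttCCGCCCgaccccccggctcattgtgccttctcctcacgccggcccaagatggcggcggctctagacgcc
Every one of these 5 windows held at least 1 GC box, Ice1 and Suz12 held 3 each, and Plk1 and Suz12 also held a CCAAT box. Trim52 had the letters of a TATA box on the opposite strand, beginning 2 bases before the start. Among all 32851 windows of the RefSeq table, 37.4% held CCAAT, 35.7% GGGCGG and 13.6% TATAAA. Among the 10062 tested genes with a single window the shares were 39.3%, 61.8% and 7.68%. A comparison of motif shares between gene sets is void, since windows cover the sets unequally. At least 1 window was found for 63.8% of the genes tested, 60.3% of those higher and 74.9% of those lower. A single window was found for 10062 of 19645, 578 of 1182 and 790 of 1315 genes in the same order.

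Among genes lower in deficient oocytes, the smallest p-values after that of Taf4b belonged to Trim52, the processed pseudogene Gm7785 (log2 fold change -1.69) and Arid5a. Trim52, a member of the tripartite-motif family (ENSMUSG00000022113, GRCm38 chr14:106106198-106135859), was at 76.6, 88.4 and 100 CPM in heterozygous 1 to 3 and at 42.1, 39.2, 47.3 and 38.3 CPM in deficient 1 to 4. The genotypes were far apart, and the left-out libraries split the same way, with 108 and 94 CPM in heterozygous 4 and 5 and 37.2 CPM in deficient 5. The log2 fold change of Trim52 was -1.08 ± 0.19 (SE, adjusted p = 0.285 by edgeR and 0.000801 by DESeq2). Arid5a, a DNA- and RNA-binding protein, was at 33.4, 40 and 112 CPM against 13.7, 16.7, 18.9 and 14.1 CPM, a log2 fold change of -1.97 ± 0.37 (SE, adjusted p = 0.285 by edgeR). Heterozygous 3 held the highest Arid5a value, and without that library its log2 fold change was -1.21. In the left-out libraries Arid5a was 18.2, 10.4 and 12.8 CPM, which does not separate the genotypes. Pmaip1, which encodes the p53-induced pro-apoptotic protein NOXA, was at 10.5, 29.3 and 27.4 CPM against 5.48, 8.83, 6.56 and 4.47 CPM (log2 fold change -1.83 ± 0.36, SE). Its deficient libraries all lay below the heterozygous ones, and its adjusted p was 0.000928 by DESeq2 and 0.285 by edgeR.

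Among genes of cell division, the mitotic kinase Plk1 was at 28.7, 35.8 and 39.1 CPM in heterozygous and 16.49, 16.62, 19.08 and 19.68 CPM in deficient libraries. The groups did not overlap, and the log2 fold change was -0.94 ± 0.21 (SE, adjusted p = 0.0135 by DESeq2). Cdc20, an activator of the anaphase-promoting complex, was at 191, 149 and 275 CPM against 105, 104, 103 and 130 CPM (log2 fold change -0.89 ± 0.23, SE). Without heterozygous 3 the difference of Cdc20 was -0.62, and the left-out libraries held 132, 101 and 108 CPM, with deficient 5 between the heterozygous values. Mki67, the proliferation antigen Ki-67 that coats mitotic chromosomes, stood the other way, at 125, 97.7 and 111 CPM against 169, 219, 180 and 197 CPM (log2 fold change 0.79 ± 0.19, SE). Of 35 cell cycle and mitosis genes tested, 2 were higher and 8 lower at an unadjusted p under 0.05 (all genes 6.01% and 6.69%). Their median log2 fold change was -0.17, beside 0.02 for all genes. Besides Plk1 and Cdc20 the lower genes were Aurka, Ccnb1, Ccnb2, Ccnd3, Mcm3 and Mcm5, and Rb1 was the other higher one; these further names were chosen after their values were seen.

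Among genes higher in deficient oocytes, H19 had the smallest p-value; Gm24270 and the pseudogene Gm7067 (log2 fold change 2.07) came next, followed by Ice1, Tcf20 and Dennd5a. H19, an imprinted long noncoding RNA (ENSMUSG00000000031, GRCm38 chr7:142575529-142578143), was at 26.2, 29.5 and 20.7 CPM against 72.9, 54.8, 53.4 and 53.1 CPM. No deficient library was below 53.1 CPM or heterozygous one above 29.5 CPM, and the log2 fold change was 1.20 ± 0.22 (SE, adjusted p = 0.000928 by DESeq2 and 0.285 by edgeR). The left-out libraries read 40.9 and 40.1 CPM in heterozygous 4 and 5 and 87.5 CPM in deficient 5. Ice1, a subunit of the little elongation complex that acts at small nuclear RNA genes, was at 23.1, 23.3 and 19.8 CPM against 46.0, 49.5, 46.4 and 37.1 CPM, a log2 fold change of 1.02 ± 0.20 (SE). The Ice1 values of the left-out libraries, 21.1, 21.3 and 37.5 CPM, were close to those of the same genotype among the globin-low libraries. Tcf20, a transcriptional coregulator, was at 35.0, 36.0 and 26.6 CPM against 55.0, 66.1, 69.3 and 63.5 CPM, and Dennd5a, a regulator of vesicle trafficking, at 55.9, 63.1 and 73.8 CPM against 114, 121, 130 and 118 CPM. Their log2 fold changes were 0.97 ± 0.20 and 0.91 ± 0.19 (SE), with adjusted p-values of 0.0118 and 0.0135 by DESeq2.

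**Figure D2:**
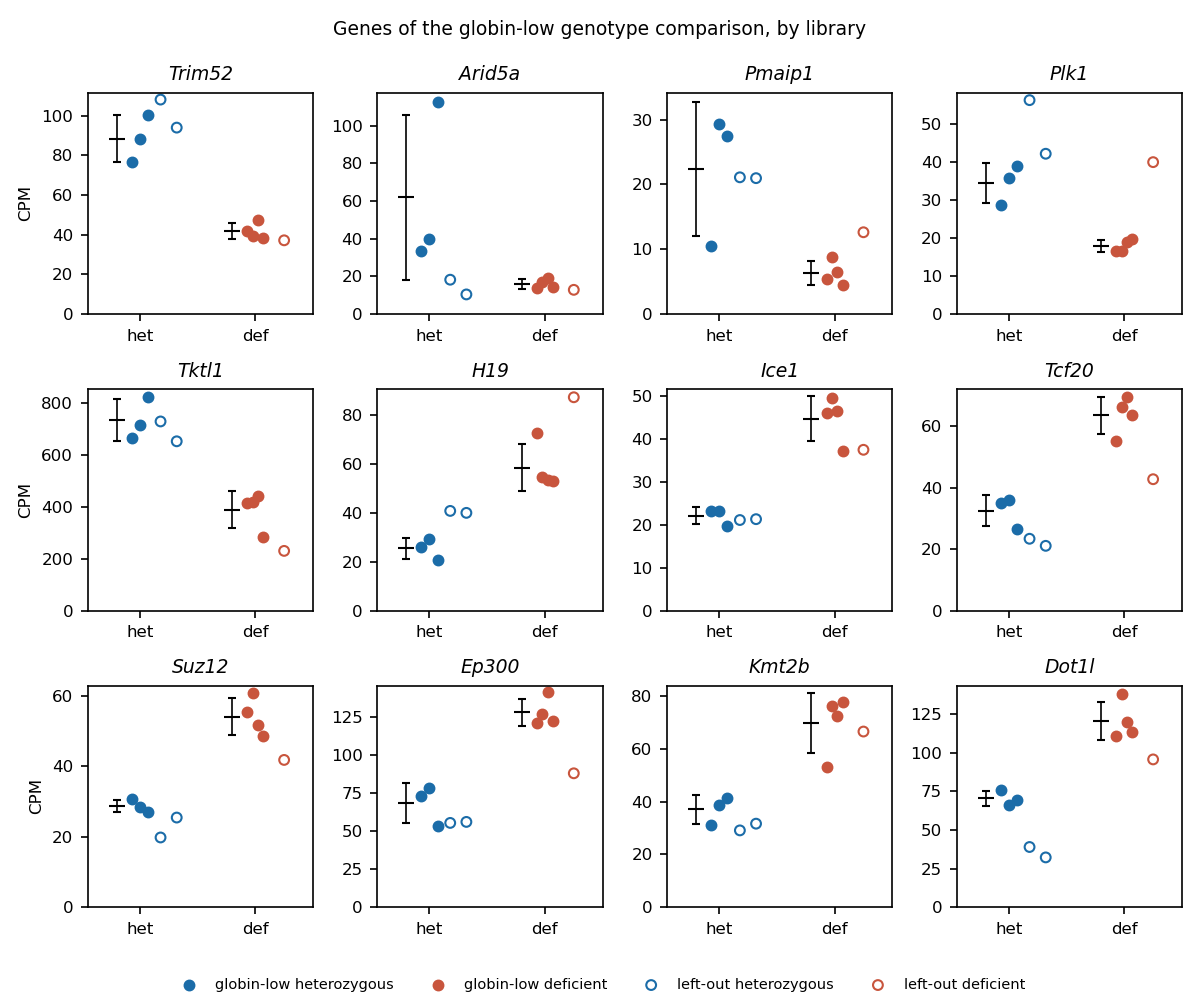
CPM of 12 genes in each library, by genotype, with filled points for globin-low and open points for left-out libraries and bars for the mean and SD of the globin-low ones. The 5 genes Trim52 to Tktl1 lie lower and the 7 genes H19 to Dot1l higher in the 4 globin-low deficient libraries, with no overlap; for Plk1 the left-out deficient 5 lies at the heterozygous level, and for Arid5a the 3 left-out libraries lie close together.

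Several writers and readers of histone marks had small p-values on the higher side. Suz12, a core subunit of Polycomb repressive complex 2 (ENSMUSG00000017548, GRCm38 chr11:79993106-80034123), was at 30.6, 28.5 and 27.0 CPM in heterozygous and 55.3, 60.8, 51.7 and 48.4 CPM in deficient libraries. The heterozygous values lay close together, and leaving out any 1 library kept the log2 fold change of 0.91 ± 0.19 (SE) between 0.87 and 0.97. Of the 30 Polycomb genes tested, however, 2 were higher (Suz12 and Mga) and 1 lower (Eed) at an unadjusted p under 0.05. Their median was 0.10, and the all-gene shares were 6.01% and 6.69%. Ep300, a histone acetyltransferase and coactivator, was at 73.1, 78.3 and 53.6 CPM against 121, 127, 141 and 122 CPM (log2 fold change 0.91 ± 0.20, SE). The 24 histone acetylation and bromodomain genes had 4 higher and 1 lower; the lower one was Kat5, the TIP60 acetyltransferase, whose difference of -1.16 ± 0.36 (SE) was -0.38 without heterozygous 3.

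The H3K4 and H3K79 methyltransferase list of 18 genes had 5 members higher and 3 lower at an unadjusted p under 0.05. The all-gene shares were 6.01% and 6.69%. All 5 higher members were catalytic enzymes: Kmt2b, Kmt2a, Dot1l, Setd1a and Setd1b. Kmt2b was at 31.0, 38.7 and 41.6 CPM against 53, 76.2, 72.7 and 77.8 CPM, Kmt2a at 66.6, 38.3 and 47.5 CPM against 94.1, 82.5, 84.8 and 101 CPM. Dot1l, the H3K79 methyltransferase, was at 75.8, 66.5 and 69.2 CPM against 111, 138, 120 and 114 CPM, with log2 fold changes of 0.91 ± 0.21, 0.84 ± 0.22 and 0.78 ± 0.18 (SE) in that order. None of these 3 genes overlapped between genotypes, and 11.4% of all genes tested likewise did not. The 3 lower members, Cxxc1, Men1 and Rbbp5, are non-catalytic partners of the same complexes, at log2 fold changes of -0.52, -0.86 and -0.49. Over the whole list, 10 of the 18 differences in the left-out libraries were positive, with a median of 0.04, beside 0.37 in the globin-low test. Setd1a, Setd1b and these partners lie outside the rule for named genes and were chosen after their values were seen.

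Chromatin remodelers of the SWI/SNF and CHD families had 4 of 24 genes higher and none lower at an unadjusted p under 0.05 by edgeR. Shares over all genes were 6.01% and 6.69%. None of the 24 was called at an adjusted p under 0.05. Arid1a, the DNA-binding subunit of the BAF complex, was at 83.9, 78.0 and 67.7 CPM against 115, 121, 124 and 135 CPM, a log2 fold change of 0.69 ± 0.18 (SE). Arid2, Smarcd1 and Chd4 were the others, and the median of the list, 0.04, was close to that of all genes. Med13, a subunit of the Mediator kinase module, was at 38.1, 39.8 and 38.6 CPM against 69.7, 74.0, 52.7 and 65.6 CPM (log2 fold change 0.75 ± 0.19, SE).

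Linker histones, which bind the nucleosome where DNA enters and leaves it, had the highest median of the pathway lists. Of 8 tested, 7 were higher at an unadjusted p under 0.05 and none was lower, with a median log2 fold change of 1.02. Among all genes tested, 6.01% were higher and 6.69% lower. H1fx, a replication-independent variant, was at 8.82, 5.95 and 2.72 CPM against 14.2, 28.5, 32.3 and 11.4 CPM, and the replication-dependent Hist1h1a at 7.33, 7.95 and 3.03 CPM against 14.7, 12.8, 16.3 and 19.2 CPM. Their log2 fold changes were 1.9 ± 0.45 and 1.37 ± 0.34 (SE), and DESeq2 gave adjusted p-values of 0.00876 and 0.0158. Hist1h1t, a variant best known from the testis, was under 1 CPM in all 3 heterozygous libraries and between 1.22 and 2.82 CPM in the deficient ones. Heterozygous 3 held the lowest value of all 3 genes, and without it the list median was 0.71. In the left-out libraries the median difference of the same 8 genes was 1.34, with 8 of 8 positive.

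Imprinted genes had 8 of 26 tested higher and none lower at an unadjusted p under 0.05, with a median log2 fold change of 0.54. The shares over all genes were 6.01% and 6.69%. Peg3, a paternally expressed zinc-finger gene, was at 99.1, 136 and 88.8 CPM against 161, 162, 238 and 176 CPM (log2 fold change 0.77 ± 0.23, SE). Meg3, a maternally expressed long noncoding RNA, was at 2.63, 1.21 and 0.65 CPM against 5.39, 3.56, 2.23 and 3.2 CPM, which overlap. Maternally expressed (H19, Meg3, Igf2r, Zim1) and paternally expressed (Peg3, Peg10, Plagl1, Kcnq1ot1) genes were both among the 8, and the 5 not described above were named after their values were seen. Without heterozygous 3 the median was 0.20, and in the left-out libraries 18 of the 26 differences were positive, with a median of 0.30. Endothelial markers in deficient 1 and pregranulosa and stroma markers in deficient 3 were high, as given above. H19 was at 72.9 and 53.4 CPM in deficient 1 and deficient 3 and at 54.8 and 53.1 CPM in deficient 2 and deficient 4. The part of those cell types in the values of H19 and the other imprinted genes was not tested. Without both deficient 1 and deficient 3, edgeR called no gene at an adjusted p under 0.05, as with all 7 libraries. In that setting 1495 genes had an unadjusted p under 0.05.

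Primordial germ cell and pluripotency genes, active in oogonia before meiosis, had 6 of 24 higher and none lower at an unadjusted p under 0.05. The all-gene shares were 6.01% and 6.69%, and the list's median log2 fold change was 0.48. The RNA-binding proteins Lin28a and Lin28b, which block let-7 maturation, were among the 6. Lin28a was at 4.89, 2.60 and 0.99 CPM against 7.76, 5.70, 5.40 and 6.27 CPM (log2 fold change 1.16 ± 0.44, SE), and Lin28b at 42.0, 47.1 and 34.4 CPM against 71.5, 88.9, 47.7 and 69.5 CPM (0.75 ± 0.23, SE). Neither overlapped between genotypes, although heterozygous 2 and deficient 3 were close for Lin28b. Ifitm3, a membrane protein of primordial germ cells, overlapped, at 9.15, 6.6 and 3.72 CPM against 14.6, 7.42, 10.6 and 18.8 CPM. The list median was 0.92 without heterozygous 1 and 0.27 without heterozygous 3, so it depended on which heterozygous library was used. Of the 24 differences in the left-out libraries 17 were positive, with a median of 0.59.

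The X-linked multicopy germline families had the lowest median of the pathway lists. Of 27 tested, 11 were lower and none was higher at an unadjusted p under 0.05, with a median log2 fold change of -0.54. Among all genes 6.69% were lower and 6.01% higher. Tktl1, a transketolase-like gene (ENSMUSG00000031397, GRCm38 chrX:74177259-74208500), was at 665, 714 and 824 CPM against 416, 417, 440 and 284 CPM (log2 fold change -0.92 ± 0.22, SE). Gm364 was at 419, 313 and 383 CPM against 228, 188, 216 and 147 CPM (-0.93 ± 0.21, SE), and the PRAME-like Pramel3 at 3.11, 7.62 and 6.44 CPM against 2.37, 2.02, 1.49 and 0.86 CPM (-1.77 ± 0.42, SE). All 3 separated the genotypes without overlap, as 11.4% of all genes tested did. Their adjusted p-values were 0.016, 0.016 and 0.0135 by DESeq2 and 0.285 by edgeR. The others were Magea3, Magea5, Magea6, Magea8, Mageb4, Nxf2, Xlr4a and Xlr4c, named after their values were seen. Many members of these families, though not every gene of the list, are close copies of each other. The authors' counting could split the reads of such copies, so single genes among them are uncertain. In the left-out libraries 23 of the 27 differences were negative, with a median of -0.90.

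The X chromosome as a whole was read beside these families. Of 786 X-linked genes tested, 33 (4.20%) were higher and 65 (8.27%) lower, with a median log2 fold change of -0.05. The ratio of the median TPM of X-linked over autosomal genes with a TPM (a length-scaled expression level) of at least 1 was 0.883 ± 0.0437 (SD, n = 3) in heterozygous and 0.862 ± 0.0334 (SD, n = 4) in deficient libraries. The difference of -0.0210 had p = 0.486 in a two-sided exact permutation test over 35 splits, which cannot go below 0.0286. It was -0.0757 with a TPM minimum of 0.1 (p = 0.114 by the same exact permutation test), 0.0170 with a minimum of 5 and 0.00377 without heterozygous 1.

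Of 16 oocyte growth and folliculogenesis genes tested, 4 were lower and none was higher at an unadjusted p under 0.05. The all-gene shares were 6.69% and 6.01%, and the list's median log2 fold change was -0.31. The 4 lower genes were Taf4b, Nobox, Sohlh1 and Tle6. Nobox, an oocyte-specific homeobox factor needed for primordial follicles to grow, was at 12.6, 10.1 and 16.9 CPM against 7.25, 6.01, 5.82 and 3.48 CPM, a log2 fold change of -1.23 ± 0.31 (SE, adjusted p = 0.0213 by DESeq2 and 0.285 by edgeR). These levels were low beside the left-out heterozygous libraries, which held 84.8 and 166 CPM of Nobox, while deficient 5 held 5.37 CPM. Sohlh1, a basic helix-loop-helix factor of early follicles, was at 0.19, 9.30 and 7.18 CPM against 0.84, 0.74, 0.42 and 0.86 CPM. Heterozygous 1 was below every deficient library for Sohlh1, so the groups overlapped, and without it the adjusted p was 0.016 by edgeR. The left-out libraries held 149, 231 and 1.58 CPM of Sohlh1. The oocyte genes Lhx8 and Figla, named after their values were seen, had log2 fold changes of -0.33 and -0.19.

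Whether the genotype difference itself depended on the globin class was tested as an interaction over all 10 libraries. No gene of 19244 was called at an adjusted p under 0.05 (0%) by edgeR, 834 had an unadjusted p under 0.05, the smallest adjusted p was 0.126, and DESeq2 called 24. For Nobox the genotype difference in the left-out libraries minus that in the globin-low ones was -3.32 on the log2 scale, with an adjusted p of 0.411 by edgeR. For Sohlh1 that term was -3.94 with an adjusted p of 0.999, and for Suz12 it was -0.03. The left-out class has 1 deficient library, so this test borrows its spread from the other libraries.

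The meiotic lists held few genes with small p-values. Over all genes, 6.01% were higher and 6.69% lower at an unadjusted p under 0.05. For lists this short no departure from those shares is claimed. None of 21 synaptonemal complex and cohesin genes had an unadjusted p under 0.05 by edgeR, and none was called at an adjusted p under 0.05; their log2 fold changes ran from -0.45 for Sycp3, an axial element protein, to 0.62 for the cohesin Rec8. Of 30 meiotic recombination genes 2 were lower, Psmc3ip, a partner of the strand-exchange recombinases, at -0.46 ± 0.19 and Sun1, which tethers telomeres to the nuclear envelope, at -0.49 ± 0.22 (SE). Their median was -0.14, and 25 of the 30 values were negative, while 51.5% of all genes tested had positive ones. The left-out libraries differed the other way, with 23 of the 30 differences positive and a median of 0.35. Meiotic entry genes had 1 higher, Rxra, and 1 lower, Msx1, of 20, with a median of 0.05 that was -0.05 without heterozygous 3.

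Among the subunits of TFIID itself, 2 of 17 genes were higher and 4 lower at an unadjusted p under 0.05. Their median log2 fold change was -0.19, and the all-gene shares were 6.01% and 6.69%. Taf5, a scaffold subunit, was at 189, 186 and 82.0 CPM against 276, 287, 347 and 258 CPM, with no overlap and a log2 fold change of 0.94 ± 0.28 (SE). Taf8 was at 77.1, 73.0 and 215 CPM against 62.0, 63.2, 66.6 and 78.3 CPM, and its difference of -0.85 was -0.15 without heterozygous 3. Taf4, the relative that TAF4b can replace, had a log2 fold change of 0.43 ± 0.25 (SE, adjusted p = 0.489 by edgeR); Taf4, Taf1, Tbp and Taf9b were named after their values were seen. Taf1 was the other higher subunit (0.46), and Tbp (-0.51) and Taf9b (-0.46) the other lower ones. Of 11 NF-Y and SP promoter factors, 3 were higher (Sp1, Sp4 and Klf4) and 4 lower (Nfya, Nfyb, Nfyc and Klf5), so all 3 NF-Y subunits lay on the lower side. Nfyb was at 16.6, 26.7 and 37.9 CPM against 19.5, 14.4, 12.9 and 15.4 CPM, which overlap, with a log2 fold change of -0.80 ± 0.28 (SE).

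Cytosolic ribosomal protein genes had 40 of 41 log2 fold changes above 0, beside 51.5% over all genes tested. Of the 41, 7 were higher and none lower at an unadjusted p under 0.05 (all genes 6.01% and 6.69%), with a median of 0.55. Rpl5 was at 299, 181 and 180 CPM against 408, 494, 231 and 380 CPM and Rpl30 at 41.9, 26.5 and 22.5 CPM against 39.0, 101, 26.3 and 91.1 CPM, so deficient 3 reached into the heterozygous range for both, and deficient 1 for Rpl30. All 15 mitochondrial genome transcripts were likewise above 0, with a median of 0.49 and 2 higher at an unadjusted p under 0.05. In the left-out libraries 36 of the 41 ribosomal differences were positive, with a median of 0.36, but only 9 of the 15 mitochondrial ones, with a median of 0.07. The median was 0.23 for ribosomal and 0.17 for mitochondrial genes without heterozygous 3, and 0.93 and 1.01 without heterozygous 1. Heterozygous 3 is the library with the lowest mitochondrial share of counts, and its part in these medians was not tested beyond leaving it out. Nuclear oxidative phosphorylation genes had 3 of 40 lower and none higher, with a median of 0.00.

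Of 23 genes tied to ovarian insufficiency in people, 2 were higher (Lars2 and Foxl2) and 4 lower (Eif2b2, Eif2b4, Nobox and Psmc3ip). The shares over all genes were 6.01% higher and 6.69% lower. Lars2, the mitochondrial leucyl-tRNA synthetase, was at 3627, 2368 and 380.5 CPM against 7144, 10220, 6829 and 5955 CPM, rounded to 4 digits, with a log2 fold change of 1.83 ± 0.55 (SE). Heterozygous 3 was far below the others, and without it the value was 1.33. Whether all reads counted for Lars2 come from its own transcripts was not tested. Foxl2, the granulosa transcription factor, had a log2 fold change of 2.20 ± 0.79 (SE) and belongs to the pregranulosa markers that were highest in deficient 3. Eif2b4, a subunit of the translation factor eIF2B, was at 43.7, 42.4 and 116 CPM against 27.6, 33.5, 31.0 and 31.2 CPM, and its log2 fold change of -1.13 was -0.48 without heterozygous 3.

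Signalling and DNA methylation lists held a few further members with small p-values, beside all-gene shares of 6.01% higher and 6.69% lower. Of 18 BMP pathway genes 3 were higher and none lower, led by the receptors Bmpr2 (0.74 ± 0.21, log2 fold change and SE) and Bmpr1a (0.80 ± 0.22), with a list median of 0.30. Of 21 genes of the Kit, PI3K, mTOR and Foxo3 pathway, which governs oocyte dormancy and growth, 3 were higher and 1 lower, with a median of 0.11. Among the higher ones the kinase Mtor was at 87.7, 106 and 80.1 CPM against 117, 135, 192 and 128 CPM, and Pik3ca had a log2 fold change of 0.56. Neither overlapped between genotypes. Uhrf1, which recruits DNMT1 to newly replicated DNA, was at 132, 270 and 232 CPM against 108, 97.6, 155 and 75.8 CPM, a log2 fold change of -0.95 ± 0.28 (SE) with overlap. Kdm1b, the H3K4 demethylase needed for maternal imprints in growing oocytes, was at 45.8, 65.5 and 62.4 CPM against 34.7, 29.6, 49.2 and 28.2 CPM (-0.71 ± 0.24, SE), also with overlap. The 16 DNA methylation genes had 1 higher, Tet2, and 2 lower with a median of 0.05. The 19 H3K9 methylation genes had 3 higher (Trim28, Kdm1a and Kdm3b) and none lower with a median of 0.08.

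The remaining lists had medians near or below that of all genes, of which 6.01% were higher and 6.69% lower. Apoptosis and p53 target genes had none of 29 higher and 3 lower, Pmaip1, Ccng1 and Phlda3, with a median of -0.23. Ccng1, the p53-induced cyclin G1, was at 45, 85.6 and 69.6 CPM against 44.2, 40.1, 35.6 and 26.9 CPM, with no overlap although heterozygous 1 and deficient 1 were close. DNA damage response and repair genes had 1 of 32 higher, the checkpoint kinase Atr, and 2 lower, the checkpoint clamp subunit Rad1 and the Ku70 gene Xrcc6, with a median of -0.05. General factors and Mediator had 3 higher and 1 lower of 30 with a median of -0.18, pan-germ cell genes 1 higher of 28 (Ybx2) with -0.25, and male fetal germ cell genes 1 lower of 7 (Cdkn2b) with -0.39. Splicing regulators had 1 higher and 2 lower of 32 with a median of 0.08, and immediate early genes 2 higher and 1 lower of 19 with -0.11. Heat shock and chaperone genes had 2 lower of 25 with a median of -0.08, and the proteasome 1 lower of 27 (Psmd2) with -0.16.

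The largest differences at an unadjusted p under 0.05 often came with a wide spread within a genotype, and some on the higher side were carried by 1 library. On the lower side, C87487, an lncRNA, was at 0.34, 11.9 and 6.87 CPM against 0.74, 0.86, 0.93 and 0.14 CPM (log2 fold change -3.27 ± 0.83, SE). Itih2, an inter-alpha-trypsin inhibitor chain, was at 1.05, 12.5 and 7.39 CPM against 1.49, 0.86, 1.68 and 0.14 CPM (-2.74 ± 0.74, SE). In both, as in Sohlh1, heterozygous 1 read like the deficient libraries while heterozygous 2 and 3 were higher, and heterozygous 4 and 5 were higher still, at 61.2 and 106 CPM for C87487 and 36.4 and 60.2 CPM for Itih2. Dmrtc1c2, an X-linked doublesex-related gene with a near-identical neighbour, was at 40.7, 8.46 and 49.0 CPM against 5.76, 7.42, 7.72 and 5.69 CPM (-2.30 ± 0.44, SE). Heterozygous 2 was nearly at the deficient level, and heterozygous 4 and 5 were at 3.03 and 7.28 CPM, within or below it. On the higher side, Nav3, a neuronal migration gene, was at 0.24, 1.21 and 0.35 CPM against 2.28, 1.29, 3.72 and 18.8 CPM (3.44 ± 0.92, SE), where deficient 4 stood alone. Emcn, an endothelial sialomucin, was at 11 CPM in deficient 1 and under 1 CPM in the other 6 libraries, and deficient 1 was also the library with the highest endothelial markers. Gm24270, annotated as a miRNA, was at 27.7, 16.3 and 7.61 CPM against 70.3, 71.8, 81.2 and 42.1 CPM (1.95 ± 0.38, SE), with no overlap and 23.8, 17.0 and 69.3 CPM in heterozygous 4, heterozygous 5 and deficient 5.

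**Figure D3:**
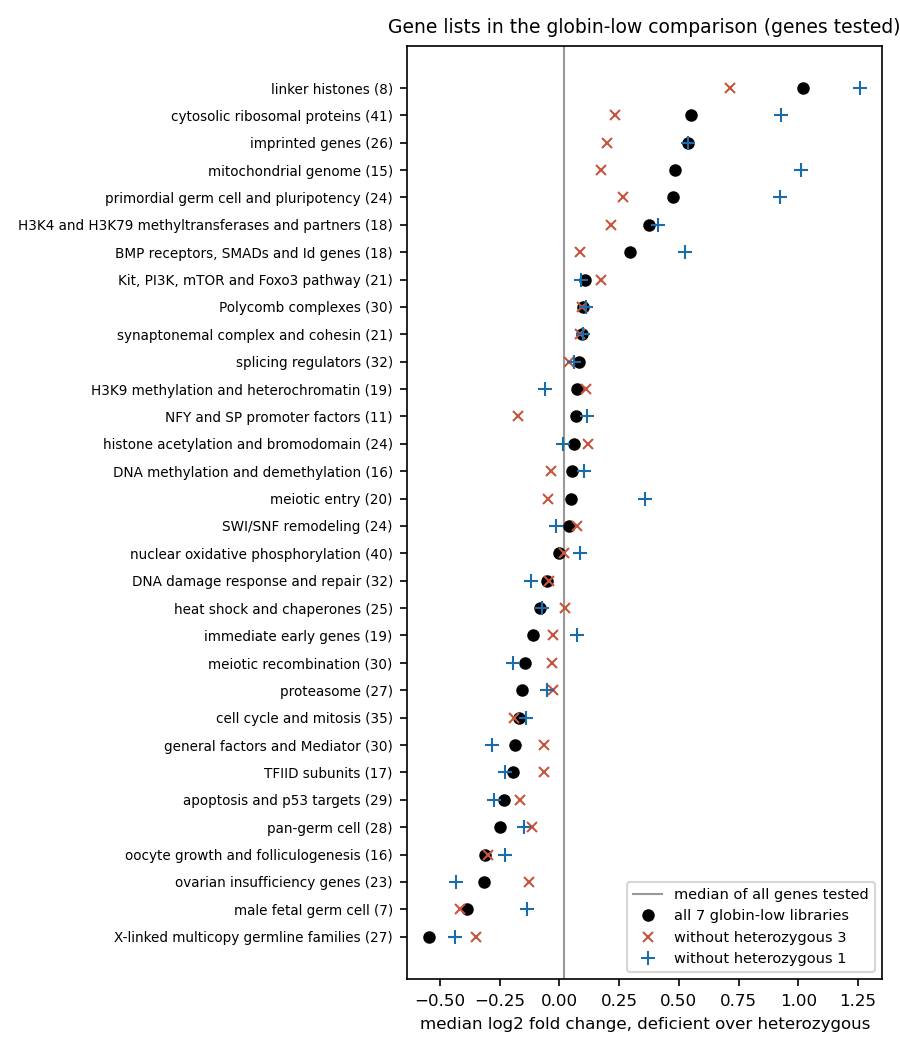
Median log2 fold change (deficient over heterozygous) of each of the 32 pathway lists (cell type marker lists are not drawn) over its tested members, with their number in parentheses, in all 7 globin-low libraries (circles), without heterozygous 3 (crosses) and without heterozygous 1 (plus signs); the line is the median of all genes, 0.02. Of the lists drawn, linker histones lie highest at 1.02 and X-linked multicopy families lowest at -0.54, and the mitochondrial median moves from 0.17 to 1.01 between the settings.

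The 3 left-out libraries give the same measure in samples that the test did not use, but they share litter dates with tested ones. Heterozygous 4 has the date of heterozygous 3, deficient 2 and deficient 3, and heterozygous 5 and deficient 5 have that of deficient 4. For each gene, deficient 5 was compared with the mean of heterozygous 4 and 5 on the log2(CPM + 0.25) scale, as a description, since the deficient side is a single library. Of the 1182 genes higher in the globin-low test, 1054 (89.2%) were higher in deficient 5, where 52.8% of all genes were. Of the 1315 lower genes, 1099 (83.6%) were lower in deficient 5, against 47.1% of all genes. The median differences were 0.62, -0.41 and 0.04 for the higher, lower and all genes. In deficient 5, 946 of the higher genes lay above both heterozygous libraries and 956 of the lower genes lay below both. The shares ran from 82.2% to 91.5% for higher and from 71.7% to 86.3% for lower genes when the genes were chosen with a library left out, with litter date or with a replicate block. Of the 106 named genes with an unadjusted p under 0.05, 97 had the same sign in the left-out libraries. The other 9 were Gm7785, Klf5, Hspa2, Phlda3, Msx1 and Sun1 on the lower side and Mrap2, Rps13-ps1 and Emcn on the higher side. Mrap2, a melanocortin receptor accessory gene, went from 2.04 to -1.75 and Gm7785, a processed pseudogene, from -1.69 to 0.49.

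**Figure D4:**
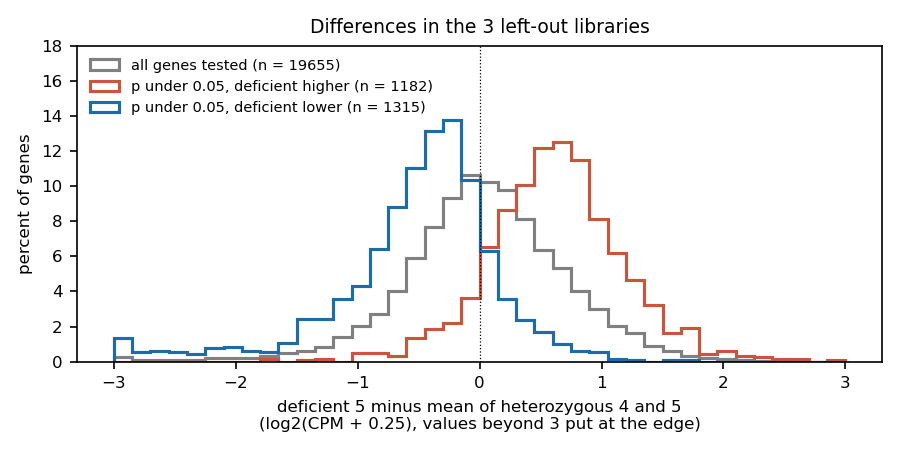
Distribution of the difference between deficient 5 and the mean of heterozygous 4 and 5, in log2(CPM + 0.25), for all 19655 genes (grey) and for genes higher (red) or lower (blue) in the globin-low test at an unadjusted p under 0.05; values beyond 3 are put at the edge. The red curve centres at 0.62 and the blue one at -0.41, beside 0.04 for all genes.

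The globin-low libraries span all 3 litter dates, and 2 dates hold both genotypes among them. The earliest has heterozygous 1, heterozygous 2 and deficient 1, the next heterozygous 3, deficient 2 and deficient 3, and the last only deficient 4. These libraries also entered the test, so the within-date values are no separate evidence. Within the earlier and the later of these 2 dates the difference was -1.79 and -0.81 for Taf4b, -0.96 and -1.21 for Trim52, 1.38 and 1.38 for H19, 0.98 and 1.27 for Ice1, 0.90 and 1.05 for Suz12 and 0.64 and 0.89 for Dot1l. With litter date in the model edgeR again called no gene at an adjusted p under 0.05, and 2521 had an unadjusted p under 0.05.

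The genes were also counted by kind of transcript. Among 14606 protein-coding genes 5.80% were higher and 8.34% lower at an unadjusted p under 0.05, with a median log2 fold change of -0.04. For 2127 lncRNA genes the shares were 5.97% and 1.93% with a median of 0.18, and for 1393 processed pseudogenes 5.46% and 1.72% with a median of 0.22. Protein-coding genes that were higher also had longer exonic sequence, with a median of 6646 bases against 4371.5 for all tested and 3766.5 for the lower ones (GENCODE M21 exons merged per gene). Of the 3652 protein-coding genes with the longest exonic sequence 11.4% were higher and 4.55% lower, and of the 3652 with the shortest 2.88% and 9.12%. Several of the chromatin genes above, Kmt2b, Kmt2a, Ep300, Arid1a and Tcf20 among them, encode very large proteins, and the part of transcript length in their values was not tested.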

How the data were processed

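RNA sequencing counts of 10 libraries were used, of which 7 with raw Hba-a1 under 200 CPM entered the test. The authors deposited a count table of whole reads per gene. The submitters' processing notes name Trim Galore 0.5.0 for trimming, HISAT2 2.1.0 for alignment to GRCm38 and featureCounts (Subread 1.6.2), and StringTie 1.3.3b, from which the deposited TPM values come. The other deposited table is the authors' own DESeq2 result over 10 libraries. Per the file headers it gives each gene's mean normalized signal, log2 fold change and its error, Wald score and raw and adjusted p-value. No source used here states how the counting treated strand or multi-mapping reads, so overlapping, antisense and near-identical genes are uncertain. Rows without a symbol took at most 0.0945% of the counts of a library and stayed in by their gene ID.

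The main test was edgeR 4.0.16 under R 4.3.3 (TMM scaling and the expression filter on the 7 libraries, quasi-likelihood test on genotype, Benjamini-Hochberg adjustment over 19655 genes). The main test used deviances without bias adjustment (edgeR's legacy setting), while the interaction test and the simulation used bias-adjusted ones. Printed CPM values use TMM factors over all 10 libraries. The SE was taken as |log2 fold change| / √F. Differences within litter dates and in left-out libraries are on the log2(CPM + 0.25) scale. The alternatives were other scalings and filters, DESeq2 1.42.0 on genes with at least 10 counts in total, limma 3.58.1 with voom quality weights or on TPM logged after adding 1 or 0.1, a term for litter date or for replicate number, each library left out, and all 10 libraries with and without globin class. Another 4 were added after seeing the data: bias-adjusted deviances, DESeq2 without heterozygous 1 or without heterozygous 3, and edgeR without deficient 1 and deficient 3.

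The comparison, the 39 gene lists (826 entries, 778 tested) and the named genes were chosen with earlier results of these data known. Named genes are Taf4b, Stra8, in each direction the 10 largest differences and the 6 smallest p-values among genes with a mean log2 CPM of at least 1, and up to 3 members per list. Of the genes this rule names, 1 is not reported here. Because fewer than 20 genes were called, an unadjusted p under 0.05 took the place of the call. Promoter windows matched 70 of the 108 named genes.

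Simulated counts with 3 against 4 libraries were tested with bias-adjusted deviances, which is not the setting of the main test. Among 19092 genes this setting called 27% of 100 genes changed 2-fold, 91% of 100 changed 4-fold and 3 of 18892 unchanged genes. Changes were placed only in genes with a mean CPM of at least 2. Libraries were drawn independently, with none set apart as heterozygous 3 was, so these shares may not hold for the real libraries.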

Additional observations from a re-analysis of the deposited data

Results flagged for a closer look

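In the group of 4 globin-low deficient libraries, 19 of the 108 named genes had 1 library set apart from the other 3, by a gap above Dixon's critical value for 4 values. For independent, normally distributed values chance sets apart about 1 in 20 groups. The named genes were mostly picked for differences in these same libraries, so their number cannot be set against that share. The directions given below are likewise no separate evidence. Deficient 1 stood apart for H19 at 72.9 CPM (others 53.1 to 54.8), Mdh1b at 1.81 (0.859 to 0.903), Smarcd1 at 32 (18.1 to 18.8), Emcn at 11 (0.632 to 0.977) and Psmc3ip, low at 62.2 (70.8 to 71.7). Deficient 2 stood apart for Mrap2 at 12.1 CPM (3.93 to 4.97) and for the ribosomal pseudogenes Rps13-ps1 at 41.5 (1.63 to 2.57) and Rps15a-ps5 at 15.1 (1.91 to 2.65). Deficient 3 did so for Lratd1 at 1.95 CPM (0.368 to 0.542), Kat5 at 25 (20.8 to 21.5), Hspa2 at 71.9 (46.6 to 50), Psmd2 at 1210 (815 to 849), Polr2a at 430 (288 to 310) and Smad3 at 15.2 (5.81 to 7.18). Deficient 4 did so for Tktl1, low at 284 CPM (416 to 440), Cdc20 at 130 (103 to 105), Nav3 at 18.8 (1.29 to 3.72), Pamr1 at 9.93 (0.92 to 1.16) and Cdh26 at 11 (0.79 to 1.96). For 13 of the 19 genes the library set apart lay in the direction of the group's difference: it was the highest of a higher group for H19, Smarcd1, Emcn, Mrap2, Rps13-ps1, Rps15a-ps5, Polr2a, Smad3, Nav3, Pamr1 and Cdh26, and the lowest of a lower group for Tktl1 and Psmc3ip. The rule was not applied to the heterozygous group of 3.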

How the results depend on the processing

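At an adjusted p under 0.05 edgeR called 0 genes with all 7 libraries (2497 at an unadjusted p under 0.05). It called 393 without a filter on low counts (4436 unadjusted), of which 373 had been tested with the filter, and 241 with all 10 libraries and globin class in the model (3907 unadjusted). DESeq2 called 165, limma voom with quality weights 1, DESeq2 without heterozygous 1 called 1552 (4680 unadjusted) and DESeq2 without heterozygous 3 called 22. Leaving out 1 library at a time gave 0 to 151 calls by edgeR and 1411 to 4123 genes at an unadjusted p under 0.05. The high ends came without heterozygous 1, and the cause was not tested. Without deficient 1 and deficient 3 there were 0 calls and 1495 unadjusted. Other scalings, a filter of 1 CPM, limma on TPM, litter date, bias-adjusted deviances and other Hba-a1 cutoffs gave 0 calls. In simulated counts with 3 against 4 libraries and no outlying library, 27% of 2-fold differences were called with bias-adjusted deviances.

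Samples of the same replicate number deviated from their group means with correlations of 0.0370, -0.0696 and 0.0259, so the numbers were not read as a pairing. With a replicate block there were 0 calls and 1662 genes at an unadjusted p under 0.05.

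The interaction of genotype and globin class had 0 calls, 24 by DESeq2 and 0 to 2 with 1 library left out. The X to autosome difference of -0.0210 became -0.0757 with a TPM minimum of 0.1 and 0.0170 with one of 5, and ran from -0.0375 to 0.00377 with 1 library left out, the last without heterozygous 1. Of 2783 values of the 108 named genes under 26 alternatives, 2556 kept their direction and side of the threshold, 223 passed the threshold in the same direction and 4 turned. Stra8 was -0.00993 without heterozygous 2, the lowest with 1 library left out (highest 1.36), and -0.00877 by DESeq2 without heterozygous 3. Smc1b was -0.0299 without heterozygous 2, again the lowest (highest 0.212), and -0.0013 with litter date in the model.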

Other observations

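The authors' deposited table compares all 10 libraries and calls 1172 genes at an adjusted p under 0.05. In that table Ice1 has a log2 fold change of 0.92 with an adjusted p of 1.92e-05, Suz12 one of 0.86 with 3.51e-05 and Taf4b one of -1.29 with 0.000152. In the authors' deposited table Nobox stands at -2.05 and Sohlh1 at -3.56, both larger in size than Ice1 and Suz12. The globin-low libraries are among the 10, so the table is no separate evidence on them.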
